A study of Mus musculus with 4 samples.

Results

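Organic ion and drug transporters are the membrane proteins that carry bile acids, steroid conjugates, toxins and medicines into liver cells and out again. They were taken as the genes whose symbols begin with Slco, Slc22a, Slc47a, Abcb, Abcc or Abcg followed by a digit, without Abcb11. Of the 19465 genes in the count matrices 65 symbols matched, and the 47 with at least 20 UMIs (unique molecular identifiers, which count captured molecules) over 4 sections were kept. The other 18 symbols had fewer, and 2 of them had none. Slc47a2 with 22 UMIs and Slco5a1 with 25 lay just inside that minimum, and Slco1c1 with 16 lay just outside it.

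The sections were formalin-fixed, paraffin-embedded mouse livers on the Visium platform, an array of barcoded spots on which each spot takes up RNA from several cells. The study compared the healthy liver with the liver scarred by carbon tetrachloride (CCl4), a toxin activated in hepatocytes around the central vein, and asked about loss of Hk2, a hexokinase. The healthy section (n = 1) was from an HK2fl/fl mouse given olive oil, and the fibrotic sections (n = 2) were from HK2fl/fl mice given CCl4. The Hk2-deleted section (n = 1) was from a PDGFRBcreERT2/Hk2fl/fl mouse given CCl4, in which the Pdgfrb promoter drives the recombinase in stellate cells and other perivascular cells. Tamoxifen was given to every mouse, controls included, at 75 mg/kg on 5 consecutive days, with 2 weeks between the last dose and the experiment. All mice were labelled male and 5 months old. CCl4 was dosed at 1 µL/g, 2 times weekly. Its duration is 6 weeks in the series' design text and either 4 or 6 weeks in the sample protocol.

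The sections held 2577 to 4134 spots and from 40585039 to 67479047 UMIs, and a spot had a median of 13665 to 15588 UMIs. All 7 hepatocyte markers, albumin among them, were present in every section. The library labelled fibrotic replicate 1 went against its label of a male mouse. Its Y-linked Eif2s3y stood at 0.51 normalised CPM (UMIs scaled to library size with edgeR's TMM factors), against 83.89 in the healthy section, 63.31 in fibrotic replicate 2 and 57.97 in the Hk2-deleted one. The summed level of 8 male-biased hepatocyte genes was 564 there against 5020 in the healthy section, 4154 in fibrotic replicate 2 and 1436 in the Hk2-deleted section. Most of that sum was Mup20, at 528 there against 3530, 4047 and 1394 in the same order. The other male-biased genes were lower in every CCl4-treated section than in the healthy one. Mup11, for example, was at 958 in the healthy section against 1.35 and 2.99 in fibrotic replicates 1 and 2 and 1.32 in the Hk2-deleted section. The summed level of 6 female-biased genes was 100.26 in fibrotic replicate 1 against 32.55, 22.46 and 24.76 in the others. Hk2 itself was at 2.22 in the healthy section against 4.34 and 4.02 in the fibrotic ones and 3.21 in the Hk2-deleted one, and whether its probe lies in the deleted part is not given in the sources used here. For some members the CCl4 difference is also given without fibrotic replicate 1. The members' calls are also given for a CCl4 group that leaves it out. Lists of other genes are read with it included.

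Uptake carriers of the Slco (organic anion transporting polypeptide) and Slc22 families take substrates from the blood across the sinusoidal face of the hepatocyte. ABC exporters then spend ATP to move the products into bile at the canalicular face, or back to blood at the sinusoidal face. Abcg5 and Abcg8 form a heterodimer that secretes sterols into bile, Abcb4 flips phosphatidylcholine into bile, and Abcc2 exports glucuronide and glutathione conjugates. The Slc47 exchangers move organic cations outward against protons. Liver lobules are zoned, so many of these genes differ between the portal and the central end of the blood path.

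Of the 47 members, 22 fell into 8 loci in which neighbours were within 1000 kb (RefSeq, GRCm38.p6). The members were taken by family symbol and no share for other genes was taken, so this describes their positions only. Abcg5 and Abcg8 are transcribed away from each other on chromosome 17, from starts listed at 84683011 and 84683121, and their annotated spans overlap, so UMIs of the pair may not be fully separated. The bases between those starts are shown because the pair fell together with CCl4. The sequences upstream of Slco1a1 (chromosome 6, 141907281 to 141946962) and Slc22a3 (chromosome 17, 12419972 to 12507704) are shown because these had the largest decreases. Each is written 5′ to 3′ on the strand named, with motif matches on either strand in capitals, from RefSeq promoter entries on GRCm38.p6, which exist for 34 of the 47 members.
Abcg5-Abcg8, chr17:84683012-84683120, plus strand: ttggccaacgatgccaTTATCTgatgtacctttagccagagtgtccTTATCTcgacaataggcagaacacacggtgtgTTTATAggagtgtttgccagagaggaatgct
Slco1a1, chr6:141946963-141947212, minus strand: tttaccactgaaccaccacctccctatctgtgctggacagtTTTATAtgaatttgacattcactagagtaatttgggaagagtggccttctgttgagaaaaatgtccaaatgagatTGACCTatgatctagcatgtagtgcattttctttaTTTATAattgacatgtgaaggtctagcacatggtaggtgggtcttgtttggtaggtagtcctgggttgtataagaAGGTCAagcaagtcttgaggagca
Slc22a3, chr17:12507705-12507954, minus strand: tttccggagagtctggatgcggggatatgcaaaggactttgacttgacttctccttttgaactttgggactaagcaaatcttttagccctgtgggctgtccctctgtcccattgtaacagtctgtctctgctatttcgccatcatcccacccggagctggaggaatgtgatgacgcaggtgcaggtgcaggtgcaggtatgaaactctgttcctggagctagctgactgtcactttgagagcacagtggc

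Both strands were searched for TATAAA as the core box of that name, for AGGTCA as the half-site of nuclear receptors, and for AGATAA as a site of a family of zinc finger factors. They were also searched for TTCNNNGAA as the site of STAT factors and for CCAAT as the box of that name. The 109 bases between Abcg5 and Abcg8 held AGATAA 2 times and TATAAA 1 time. Windows of that length held AGATAA in 3.98% and TATAAA in 5.90% of 32851 promoters. The 250 bases upstream of Slco1a1 held AGGTCA 2 times and TATAAA 2 times, which 14.0% and 12.4% of promoters held at least once. None of these letters was found upstream of Slc22a3. A match is a description of the letters only.

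With CCl4, uptake carriers and exporters were found among both the higher and the lower members, while many of the abundant transporters did not pass the test. Lower were Slco1a1, Slc22a3, Slc22a4, Slc22a28, Abcg8, Abcg5, Abcg2 and Abcb10. Higher were Slco4c1, Slc22a26, Slc22a27, Abcb1a, Abcc1, Abcc4, Abcc5 and Abcg1, of which Slco4c1 had only 1 UMI in the healthy section. Slco1a1, an organic anion uptake carrier known to be higher in male than in female mouse liver, had the largest decrease. Slc22a3, a low-affinity organic cation carrier, followed it. Of 46 members tested, 8 were higher and 8 lower in the fibrotic than in the healthy section (edgeR quasi-likelihood test, Benjamini-Hochberg adjusted p under 0.05 over all genes). Among all 14125 genes tested, 9.64% were called higher and 4.01% lower, 13.7% in either direction, against 34.8% of the members. The median log2 difference was 0.05 over the members and 0.00 over all genes. Without scaling factors the median of all genes moved to 0.34 and the split became 12 higher and 3 lower. The healthy group has 1 section, assumed to vary like the 2 fibrotic ones, so p-values measure only the spread between those. In sections as in any bulk sum, fewer cells of a type and less RNA per cell cannot be told apart.

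**Figure D1:**
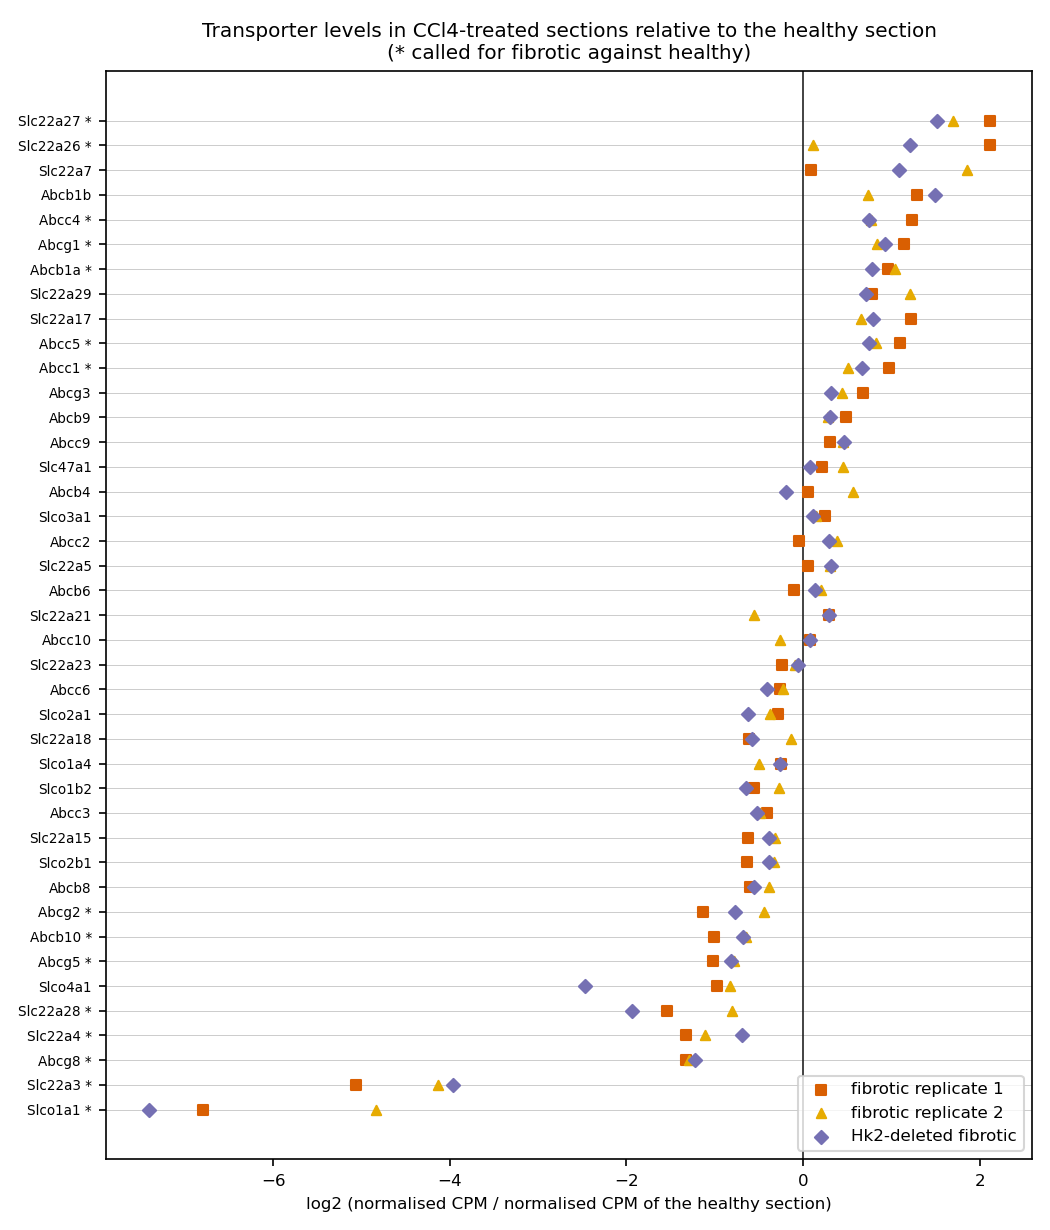
Each point is the log2 ratio of a transporter's normalised CPM in 1 CCl4-treated section to that in the healthy section, for 41 members with at least 10 UMIs in the healthy section, ordered by the fitted difference. Asterisks mark members called for fibrotic against healthy. Slco1a1 and Slc22a3 lie far to the left in all 3 CCl4-treated sections, and Slc22a26 is spread widely between sections.

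Among the organic anion transporting polypeptides, 1 of 9 was higher and 1 lower. Slco1a1 was at 261 normalised CPM in the healthy section (exact Poisson 95% interval 257 to 266, counting error only). The fibrotic sections had 2.36 (2.03 to 2.73) and 9.12 (8.21 to 10.1), and the Hk2-deleted one had 1.53 (1.26 to 1.85). The healthy section was thus far above all CCl4-treated sections, and a UMI of it was seen in 94.7% of healthy spots but in 2.72% to 12.8% of spots elsewhere. Its log2 difference was -5.54 ± 0.43 (SE, adjusted p = 4.86e-08, edgeR). The difference was -4.84 without fibrotic replicate 1 and -6.80 without fibrotic replicate 2. Of the male-biased hepatocyte genes, 7 of 8 were lower with CCl4, with a median log2 difference of -3.93, and of 5 female-biased genes tested 3 were higher. Their part in the result was not tested.

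The neighbours of Slco1a1 on chromosome 6 had smaller differences. Slco1b2, which takes up bile acids and many drugs, was at 601 in the healthy section, 408 and 498 after CCl4 and 383 after CCl4 with Hk2 deleted. Its log2 difference of -0.41 ± 0.33 did not pass (adjusted p = 0.458, edgeR). Slco1a4 was at 124, 104, 87.7 and 103 in the same order, also without a call (-0.37 ± 0.23). For both, the healthy section was the highest of the 4. Slco4c1 passed with 1 UMI in the healthy section and 28 and 27 in the fibrotic sections, a ratio of 21.4 with a counting interval of 3.69 to 861. Slco5a1 had no UMI in the healthy section against 17 and 2 in the fibrotic sections, and did not pass. The prostaglandin carrier Slco2a1 was at 85.5, 70.0, 65.9 and 55.7, and Slco2b1 at 112.6, 72.8, 89.6 and 86.4, neither of them called.

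Of 6 organic cation and carnitine carriers, 2 were lower and none was higher. Slc22a3 was at 3.95 in the healthy section, against 0.12 and 0.23 with CCl4 alone and 0.25 with CCl4 and Hk2 deletion, from 178, 9, 9 and 18 UMIs. The groups did not overlap, with a log2 difference of -4.59 ± 0.55 (adjusted p = 9.92e-06, edgeR). The difference was -4.11 without fibrotic replicate 1. Slc22a4, a carrier of ergothioneine, was at 4.78, 1.91, 2.21 and 2.96, a difference of -1.22 ± 0.34 (adjusted p = 0.0202, edgeR). The carnitine carrier Slc22a5 was at 11.5, 11.9, 14.2 and 14.3 and was not called.

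Of the 8 other Slc22 carriers, 2 were higher and 1 lower, and all 3 lie side by side in a chromosome 19 cluster of close copies, Slc22a26 to Slc22a29. The probe set is not given in the sources used here, so a share of these UMIs may belong to another copy. Slc22a26 was at 24.9 in the healthy section, 108 in fibrotic replicate 1, 26.9 in fibrotic replicate 2 and 57.5 in the Hk2-deleted section. Its call (1.44 ± 0.46, adjusted p = 0.044, edgeR) rests on fibrotic replicate 1: without that library the log2 difference was 0.11, and without fibrotic replicate 2 it was 2.10. Slc22a27 was at 0.67, 2.89, 2.16 and 1.92, higher in all 3 CCl4-treated sections (1.92 ± 0.47, adjusted p = 0.00909, edgeR). Slc22a28 was at 22.0, 7.55, 12.6 and 5.73, lower in all of them (-1.14 ± 0.24, adjusted p = 0.00319, edgeR). Without fibrotic replicate 1, Slc22a28 was -0.80. Slc22a7, an organic anion carrier, was at 2.93, 3.13, 10.65 and 6.22, so fibrotic replicate 1 was near the healthy level, and it did not pass (adjusted p = 0.0884, edgeR).

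Of 7 canalicular exporters, 3 were lower and 1 was higher. Abcg8 was at 96.1 in the healthy section against 38.5 and 39.2 in the fibrotic ones and 41.1 in the Hk2-deleted one, a log2 difference of -1.31 ± 0.20 (adjusted p = 0.000139, edgeR). Its partner Abcg5 was at 71.1, 35.1, 41.5 and 40.4, a difference of -0.89 ± 0.20 (adjusted p = 0.00494, edgeR). For both partners the CCl4-treated sections lay close to each other and well below the healthy section. Abcg2, which exports sulphate conjugates and urate, was at 47.1, 21.4, 34.7 and 27.6. Its difference of -0.75 ± 0.22 (adjusted p = 0.0292, edgeR) was -0.44 without fibrotic replicate 1 and -1.15 without fibrotic replicate 2.

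Abcb1a, a P-glycoprotein that exports many drugs, was at 4.64 in the healthy section and 9.03, 9.57 and 7.97 in the others, a rise of 1.00 ± 0.24 on the log2 scale (adjusted p = 0.00804, edgeR). Its close copy Abcb1b was at 1.02, 2.49, 1.71 and 2.87 and did not pass, and reads of the pair may not be fully separated. Abcb4, the other gene of that chromosome 5 locus, was at 44.8, 46.5, 66.6 and 39.2, without a call. Abcc2 was at 357, 345, 468 and 437, with the healthy value inside the range of the fibrotic ones. Slc47a1, the canalicular cation exchanger, was at 72.6, 84.5, 99.1 and 76.5 (0.34 ± 0.23, adjusted p = 0.363, edgeR). Slc47a2, with 3, 11, 2 and 6 UMIs, was too low to be tested.

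Of 6 other Abcc exporters, 3 were higher and none was lower. Abcc5, an exporter of nucleotide analogues, was at 11.4, 24.5, 20.3 and 19.2 (0.97 ± 0.20, adjusted p = 0.00245, edgeR). Abcc4, which exports bile acids and cyclic nucleotides at the sinusoidal face, was at 2.60, 6.10, 4.45 and 4.35 (1.03 ± 0.32, adjusted p = 0.039, edgeR). Abcc1, an exporter of glutathione conjugates, was at 6.35, 12.5, 9.07 and 10.1 (0.77 ± 0.24, adjusted p = 0.0414, edgeR), and at 0.51 on the log2 scale without fibrotic replicate 1. The healthy section was the lowest for all 3 genes. They are named here because they were called higher, so this order adds nothing to their calls. Abcc3, a sinusoidal exporter of glucuronides, was at 205, 154, 146 and 143, the healthy section highest, but did not pass (-0.44 ± 0.25, adjusted p = 0.267, edgeR). Abcc6 and Abcc10 were not called either.

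Among the remaining members, Abcb10, a mitochondrial transporter linked to haem synthesis, was lower at 48.3 in the healthy section against 24.1, 30.9 and 30.1 (-0.82 ± 0.19, adjusted p = 0.00719, edgeR). The other 4 organelle transporters of the Abcb family were not called. Abcg1, which passes cholesterol to lipoproteins and is abundant in macrophages, was higher at 15.003, 12.2 and 12.9 against 6.80 (1.00 ± 0.23, adjusted p = 0.00494, edgeR). Macrophage markers were mostly higher too, 5 of 6 being called. The remaining marker, Clec4f, was not called (-0.20 ± 0.30). Its level was 374 in healthy liver, 336 in fibrotic replicate 1, 316 in fibrotic replicate 2 and 286 with Hk2 deleted. Abcc9, the regulatory subunit of potassium channels in vascular and mesenchymal cells, was at 48.0, 59.5, 65.8 and 66.0 and was not called (0.38 ± 0.21, adjusted p = 0.258, edgeR). Of the stellate and fibroblast markers 7 of 8 were called higher, with a median log2 difference of 2.36, and of 7 hepatocyte markers none was called, with a median of -0.62. The part of these markers in the members' differences was not tested.

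The calls differed in how they held when sections or spots were changed. When the CCl4 group was made of the Hk2-deleted section and fibrotic replicate 2, which leaves out the library that went against its label, 12 members were called, 7 higher and 5 lower, and 11 of them were among the 16. Abcc4, Abcg2, Slc22a4, Slc22a26 and Slc22a28 were then not called. Without the collagen-high spots 11 were called, and Abcc1, Abcc4, Abcg2, Slc22a26 and Slco4c1 were not. DESeq2 called 9 members, all among the 16: Slco1a1, Slc22a3, Slc22a27, Slc22a28, Abcg5, Abcg8, Abcb10, Abcc5 and Abcg1.

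Genes that act with the transporters were read against the 13.7% of all genes called with CCl4 by the same test, 9.64% higher and 4.01% lower. Of 18 regulators of transporter genes, 1 was lower, Nr0b2, the repressor induced by bile acids (-1.91 ± 0.20), and none was higher. Of 20 other hepatic carriers tested, none was called. Of 18 drug-metabolising enzymes 1 was higher, Cyp2c55 (0.82 ± 0.22). Its level was 35.7 in the healthy section, 70.9 and 55.5 in fibrotic replicates 1 and 2 and 34.9 in the Hk2-deleted section.

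Deletion of Hk2 in Pdgfrb-expressing cells was compared within CCl4-treated livers, 1 section against 2. None of 46 members was called by edgeR and none by DESeq2, while 0.227% of all genes were called by edgeR, 0.142% higher and 0.085% lower. At an unadjusted p under 0.05 there were 3, all lower: Slco1a1 (-1.87 ± 0.49, adjusted p = 0.235), Slc22a28 (-0.81 ± 0.26, adjusted p = 0.586) and Abcb4 (-0.53 ± 0.23, adjusted p = 1.00). The share of all genes at that unadjusted level is not given here, so the 3 are listed as a description only. Slco1a1, named here after its values were seen, was called under 2 of the settings tried, -1.77 without scaling factors and -1.86 without the filter on low counts. Against fibrotic replicate 1 alone its difference was -0.62, and against fibrotic replicate 2 alone it was -2.57. Abundant members of the role groups differed little: Slco1b2 by -0.24 ± 0.34 and Slc22a23 by 0.11 ± 0.22 on the log2 scale. Slc47a1 stood at -0.26 ± 0.23, Abcc2 at 0.10 ± 0.33, Abcc3 at -0.07 ± 0.26, Abcb6 at 0.08 ± 0.22, Abcc9 at 0.08 ± 0.21 and Abcg1 at -0.07 ± 0.21. With a lone deleted section, a p that misses the threshold does not show that levels were equal. No member of the 3 lists of regulators, carriers and enzymes was called.

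Within the lobule, transporters were found at either end. Spots were scored by 9 pericentral and 12 periportal landmark genes, none of them among the 47, and split by score into 3 zones of equal size. Slco1b2, Abcc4 and Abcc9 were higher in the pericentral zone, and Slc22a7, Abcb1a and Slco2a1 in the periportal zone. With section as a block, 6 of 41 members tested were higher and 3 lower in the pericentral than in the periportal zone (22.0%), against 6.85% and 5.74% of all 12664 genes tested (12.6%). Without scaling factors the split was 13 and 3, with the median of all genes at 0.21. The count also moved with the sections: 27 members were called without the healthy section, 4 without fibrotic replicate 2, 4 without the Hk2-deleted section and 6 without fibrotic replicate 1. Shares of all genes are not given for these settings, so these counts cannot be set against the 12.6%.

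Slco1b2 rose from 413 through 626 to 838 normalised CPM from the periportal through the middle to the pericentral zone of the healthy section. In fibrotic replicate 1 it went from 334 to 452, in fibrotic replicate 2 from 377 to 604 and in the Hk2-deleted section from 322 to 446. The gradient thus ran the same way in all 4 sections (0.65 ± 0.11, adjusted p = 0.0108, edgeR). Abcc9 (0.91 ± 0.11) and Abcc4 (0.94 ± 0.16) were also higher in the pericentral zone in each section. Of Abcc4 in the healthy section, though, there were 2.33 and 2.91 only, from 43 and 35 UMIs. Slco3a1 (0.41 ± 0.09) and the orphan carrier Slc22a23 (0.36 ± 0.06) were higher there by less. Stellate and fibroblast markers were higher in the pericentral zone too, 7 of 8 being called, and their part in these differences was not tested.

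Slc22a7 had the opposite gradient, from 3.74 periportal to 1.33 pericentral in the healthy section. In the CCl4-treated sections it went from 3.78 to 2.51, 14.3 to 6.80 and 7.39 to 4.44, so the periportal end was the higher in every section (-0.90 ± 0.15, adjusted p = 0.0118, edgeR). Abcb1a went from 6.08 to 3.41 in the healthy section, and from 13.6 to 6.85, 11.4 to 6.51 and 9.98 to 6.44 in the others (-0.82 ± 0.10, adjusted p = 0.004, edgeR). Slco2a1 was lower in the pericentral zone by 0.30 to 0.61 on the log2 scale across sections (-0.48 ± 0.07, adjusted p = 0.00664, edgeR). Abcb1a and Abcc9 kept their call without any 1 of the 4 sections, which Slco1b2, Slco2a1, Slco3a1, Slc22a23, Abcc4 and Slc22a7 did not. Slc47a1 (-0.07 ± 0.12), Abcb6 (-0.06 ± 0.10) and Abcg1 (0.44 ± 0.12) were the most abundant members of groups without a call.

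Both genes with the largest decreases with CCl4 differed in their lobular position. Slco1a1 was nearly even across the healthy lobule, at 242, 266 and 276, whereas Slc22a3 was at 1.57, 2.00 and 9.88, from 29 UMIs in the periportal and 119 in the pericentral zone. Slc22a3 did not pass the filter on low counts between zones and was not tested there. In the CCl4-treated sections each zone of the lobule had less of either gene than any zone of the healthy section, at most 12.3 of Slco1a1 and at most 0.52 of Slc22a3.

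**Figure D2:**
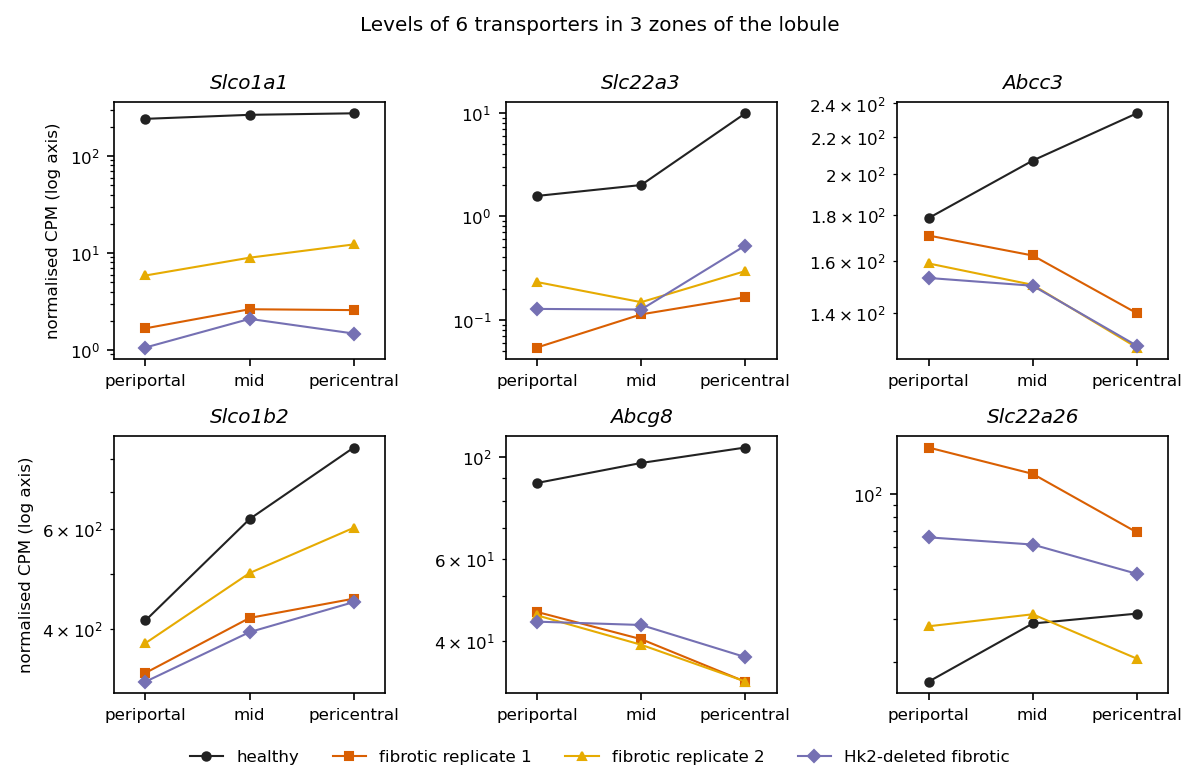
Normalised CPM on a log axis in the periportal, middle and pericentral zones for 6 transporters, 1 line for each section. Slco1b2 climbs towards the central vein in all sections, while Abcg8, Abcc3 and Slc22a26 climb in the healthy section and are lower at the pericentral than at the periportal end after CCl4.

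The lists of related genes were split between the zones. Among regulators, Ahr (0.90 ± 0.07) and Nr1i3 (0.64 ± 0.11), both sensors of foreign compounds, were higher in the pericentral zone, and Hnf4a (-0.41 ± 0.09) and Nr0b2 (-0.24 ± 0.06) were lower, of 18 tested. Of 19 other hepatic carriers 4 were lower and none was higher, among them Slc51b (-1.35 ± 0.30) and the bile acid carrier Slc10a1 (-0.46 ± 0.12). Of 17 drug-metabolising enzymes 6 were higher, such as Cyp2c55 (1.31 ± 0.07) and Cyp2c29 (0.93 ± 0.14), and 2 lower.

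The zone difference itself changed with CCl4 for many transporters. In the healthy section exporters such as Abcc3, Abcg5, Abcg8 and Slc47a1 were somewhat higher in the pericentral zone, and in all 3 CCl4-treated sections they were lower there. By a test of that change (the zone by treatment term), 15 of 41 members shifted towards the periportal end (36.6%) and 5 towards the pericentral end. Among all genes tested, 10.4% and 8.69% were called in these directions, 19.1% together, against 48.8% of the members. The median was -0.33 over the members and 0.01 over all genes. Without scaling factors the split was 12 and 8, with the median of all genes at 0.14. The healthy side is 1 section, so its own spread between mice is unknown.

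**Figure D3:**
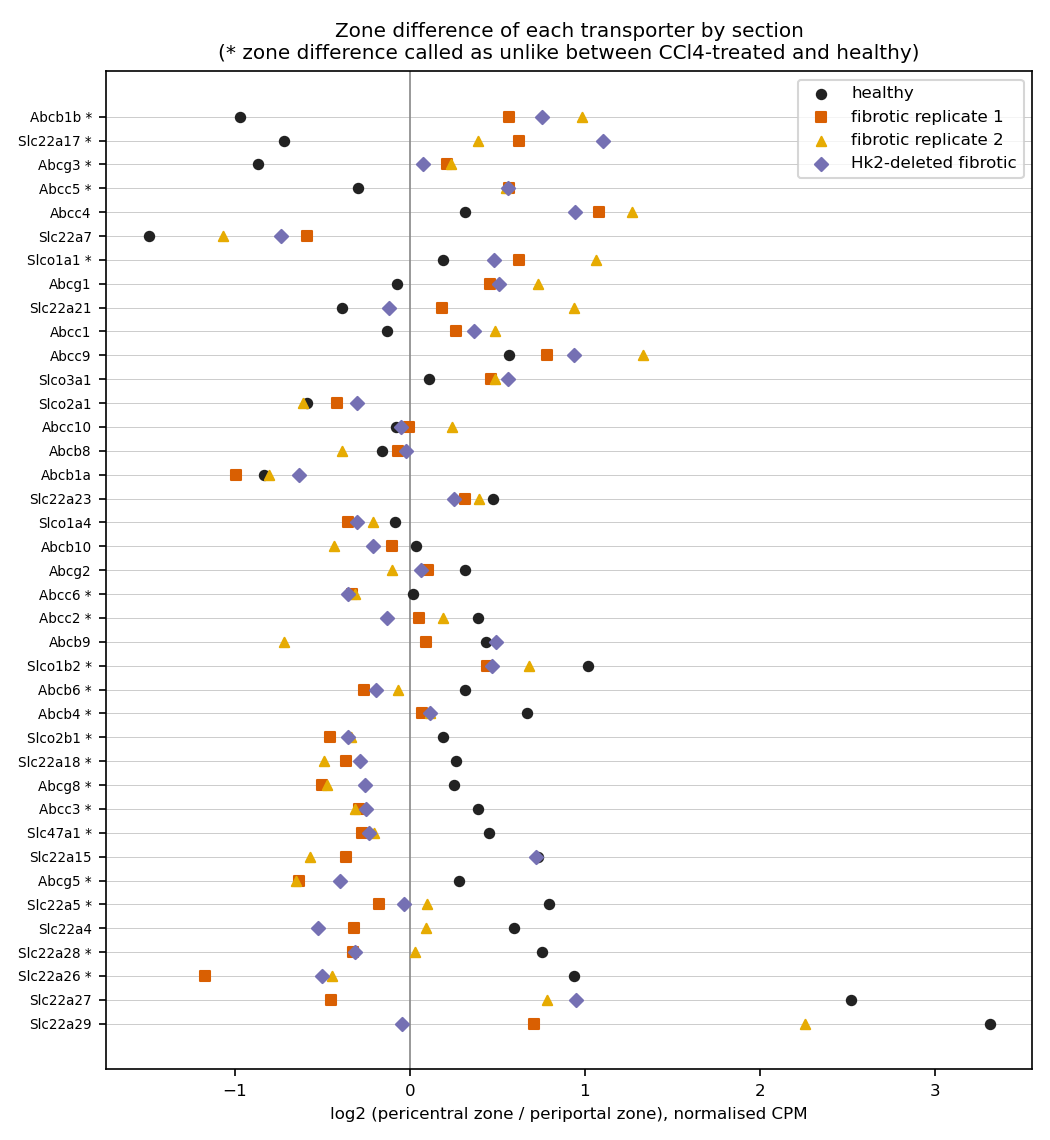
Each point is the log2 ratio of the pericentral to the periportal zone in 1 section, for 39 of the 41 members tested, ordered by the change of that ratio with CCl4. Asterisks mark members whose zone difference was called as unlike between the CCl4-treated sections and the healthy section. From Slco2b1 down to Slc22a26, most starred members lie to the right of 0 in the healthy section and to the left in most CCl4-treated sections.

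Abcc3 went from 179 periportal through 207 to 234 pericentral in the healthy section, and from 171 to 140, 159 to 128 and 153 to 129 in fibrotic replicates 1 and 2 and the Hk2-deleted section. The order of the zones was thus reversed in each CCl4-treated section (-0.67 ± 0.09, adjusted p = 0.000324, edgeR). Slc47a1 went from 61.5 to 84.2 in the healthy section, and from 91.0 to 75.1, 105 to 90.9 and 82.9 to 70.6 in the others (-0.69 ± 0.09, adjusted p = 0.000338, edgeR). Abcg5 went from 64.1 to 77.9 in the healthy section and from 44.7 to 28.8 in fibrotic replicate 1 (-0.83 ± 0.11, adjusted p = 0.000363, edgeR). Its log2 zone difference was 0.28 in the healthy section and -0.63, -0.65 and -0.40 in the others. Abcg8 went from 87.7 to 105 in the healthy section, and from 46.2 to 32.6, 45.4 to 32.7 and 44.0 to 36.9 in the others (-0.65 ± 0.11, adjusted p = 0.00117, edgeR).

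Among the called members, Slc22a26 had the largest shift, from 16.5 to 31.7 in the healthy section against 155 to 69.0, 28.1 to 20.6 and 65.8 to 46.4 in the others (-1.74 ± 0.27, adjusted p = 0.000876, edgeR). Fibrotic replicate 1, where its level was highest, also had the steepest fall. Slc22a28 (-0.95 ± 0.17), Slc22a5 (-0.84 ± 0.18), Slc22a18 (-0.64 ± 0.13), Slco2b1 (-0.57 ± 0.09) and Abcb4 (-0.57 ± 0.10) shifted the same way. Of these, Slc22a18 and Slco2b1 changed sign in all 3 CCl4-treated sections, whereas Abcb4 stayed slightly higher in the pericentral zone, at 0.07 to 0.11 against 0.67 in the healthy section. Slco1b2 (-0.49 ± 0.11) kept its pericentral gradient but with a smaller slope. Toward the pericentral end moved Abcb1b (1.69 ± 0.56), Slc22a17, a lipocalin receptor (1.46 ± 0.42), Abcg3 (1.04 ± 0.22), Abcc5 (0.86 ± 0.17) and Slco1a1 (0.67 ± 0.16). Abcb1b rested on 24 and 8 UMIs in the healthy periportal and pericentral zones, and Slc22a17 on 53 and 21. Slco1a1 rested on 31 and 78 UMIs in those zones of fibrotic replicate 1. It had 76 and 166 in fibrotic replicate 2 and 25 and 34 in the Hk2-deleted section. Abcc9, the most abundant member of a group without a call, stood at 0.43 ± 0.16.

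Depth and cell makeup differed between the zones too. The pericentral zone of the healthy section had 13681868 UMIs against 22686349 in the periportal zone. In fibrotic replicate 1 it had more, 25074217 against 18273757. It had fewer, as in the healthy section, in fibrotic replicate 2 (12368851 against 14332913) and in the Hk2-deleted section (19480331 against 23247491). Zones drawn within bins of UMIs per spot had closer depths, 18078265 pericentral against 18104595 periportal UMIs in the healthy section and 13234657 against 13687283 in fibrotic replicate 2. With these zones 16 members were called, 14 of them among the 20, and Abcb1b, Abcc2, Slc22a5, Slco1a1 and Slco1b2 were among those that were not. The summed stellate markers had a log2 zone difference of 0.18 in the healthy section and 1.16 to 1.56 in the CCl4-treated sections, and the macrophage markers -0.44 against 0.43 to 0.67. The cholangiocyte markers had -1.96 in the healthy section against -1.05 to -0.45, with 4 of 6 called for this change, and the lymphocyte and neutrophil markers -0.05 against 0.75 to 0.99. The summed hepatocyte markers had -0.55 in the healthy section and -0.55 to -0.33 in the others. The part of these cell types in the shifts was not tested. Without the collagen-high spots 16 members were called, all among the 20. DESeq2 called 9, all towards the periportal end and all among the 20, including Abcb4, Abcc3, Abcg5, Abcg8, Slc22a26, Slc47a1, Slco1b2 and Slco2b1. Of the related lists, 6 of 18 regulators, 6 of 19 other carriers and 9 of 17 enzymes were called towards the periportal end, and 2 carriers the other way.

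Scar was approached through the collagen-high spots, the top 10 percent of each section by the share of UMIs from the collagen genes Col1a1, Col1a2 and Col3a1. Across the 3 CCl4-treated sections 70.5% to 82.9% of them lay in the pericentral zone. Slc22a26, Slc22a7, Abcg5, Slco1a4 and Abcc2 were among the members lower in these spots, and Abcb1b, Slc22a17 and Abcc9 among those higher. Of 42 members tested, 19 were lower and 7 higher (61.9%), against 22.1% and 21.9% of all 13167 genes (44.0%). The median was -0.27 over the members and 0.01 over all genes. Without scaling factors, which moved the median of all genes to 0.33, the split was 8 lower and 11 higher, and members such as Slco1b2 and Slc22a23 changed sign. Of the hepatocyte markers 7 of 7 were lower in these spots, and 5 of 5 stellate markers tested were higher.

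**Figure D4:**
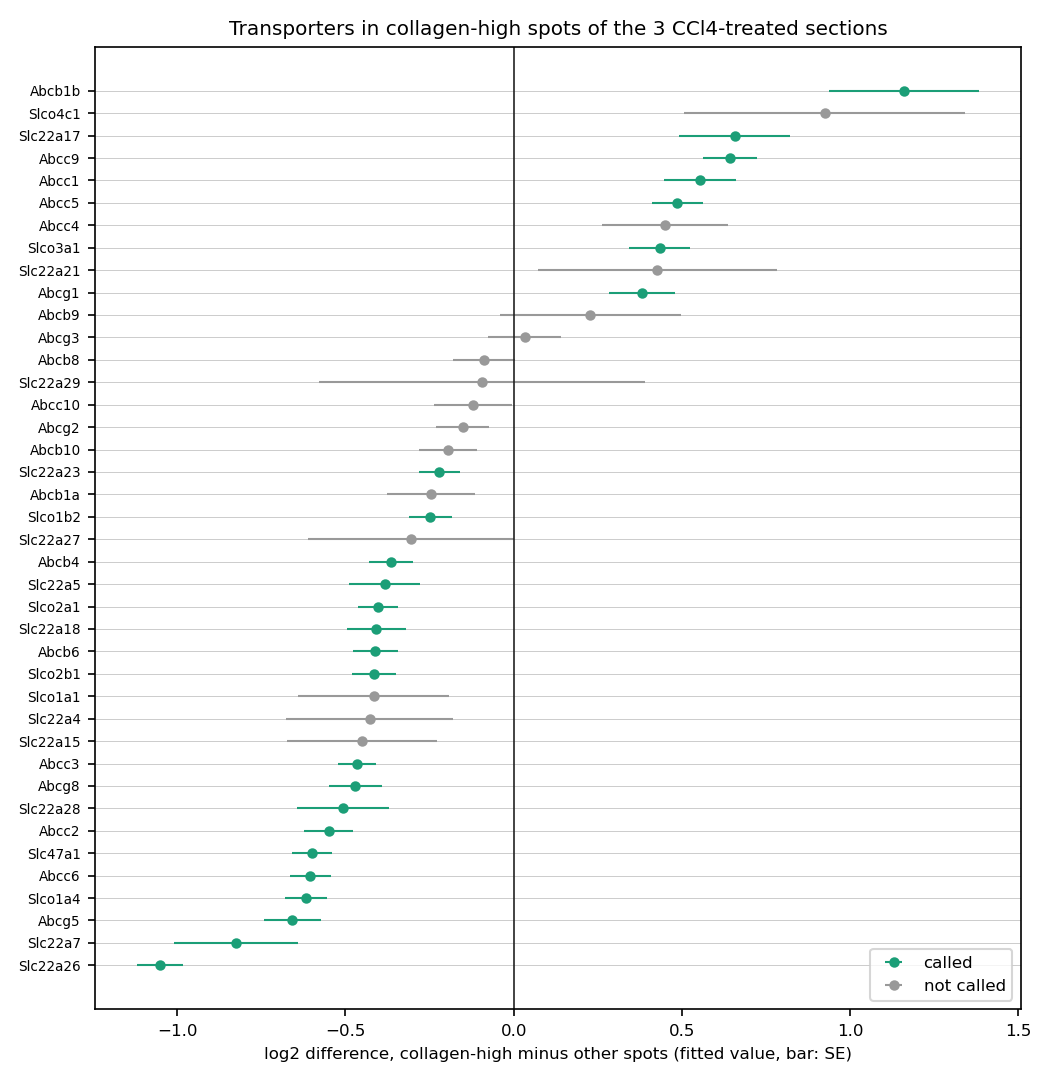
Points are fitted log2 differences between collagen-high and other spots of the 3 CCl4-treated sections for 40 of the 42 members tested, with bars of 1 SE and called members in green. Abcb1b, Slc22a17 and Abcc9 are the highest among the called members, and Slc22a26 and Slc22a7 the lowest; without scaling factors, Slco1b2 and Slc22a23 lie on the other side of 0.

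Values of collagen-high and other spots were scaled together and are not on the scale of the section levels above. Abcc9 was at 90.1 in collagen-high and 66.6 in other spots of fibrotic replicate 1, at 131 and 68.1 in fibrotic replicate 2 and at 109 and 72.6 in the Hk2-deleted section (0.64 ± 0.08, adjusted p = 2.19e-05, edgeR). Abcb1b was at 4.96 and 2.61, 2.97 and 1.82, and 8.06 and 2.72 (1.16 ± 0.22, adjusted p = 0.000807, edgeR). Both were higher in collagen-high spots in each section. Slc22a17 (0.66 ± 0.17), Abcc1 (0.55 ± 0.11), Abcc5 (0.49 ± 0.08), Slco3a1 (0.43 ± 0.09) and Abcg1 (0.38 ± 0.10) were higher too.

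On the lower side, Slc22a26 had the largest difference (-1.05 ± 0.07, adjusted p = 1.29e-07, edgeR), followed by Slc22a7 (-0.83 ± 0.18), Abcg5 (-0.66 ± 0.08) and Slco1a4 (-0.62 ± 0.06). Abcc2 was at 294 in collagen-high and 422 in other spots of fibrotic replicate 1, at 427 and 545 in fibrotic replicate 2 and at 314 and 536 in the Hk2-deleted section (-0.55 ± 0.07, adjusted p = 3.38e-05, edgeR). It was lower in the collagen-high spots of all 3. Slc47a1 (-0.60 ± 0.06), Abcc6 (-0.60 ± 0.06), Abcc3 (-0.47 ± 0.06), Abcg8 (-0.47 ± 0.08) and Abcb6 (-0.41 ± 0.07) were among the 19 as well. Within the pericentral zone alone 24 members were called, 4 higher and 20 lower, 21 of them among the 26, and Slco3a1, Slc22a17, Abcg1 and Slc22a7 were among those not called there. Of the related lists, 14 of 18 regulators, 11 of 19 other carriers and 13 of 18 enzymes were lower.

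The authors' deposited table gives Moran's I, a score of how far neighbouring spots resemble each other, for each gene and section. In that table Slco1b2 had 0.278 in the healthy section and 0.147, 0.150 and 0.177 in fibrotic replicates 1 and 2 and the Hk2-deleted section. Abcc2 had 0.196, 0.136, 0.103 and 0.180. Both stood high in every section, Slco1b2 at rank 55 of 15352 genes listed in the healthy section. In the authors' deposited table Slc22a26 had 0.110 in fibrotic replicate 1 and 0.007 to 0.028 in the other sections. A UMI of it was seen in 80.2% of spots of fibrotic replicate 1 and in 29.5% to 61.5% elsewhere. A low score does not show that a pattern was absent. Its log2 zone difference was 0.94 in the healthy section, -1.17 and -0.45 in fibrotic replicates 1 and 2 and -0.50 in the Hk2-deleted section. Slco1a1 had 0.014 in the healthy section, where nearly every spot held it.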

How the data were processed

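The deposited UMI counts per gene and spot came from Space Ranger 2.0.0, per the file headers. The submitters' processing notes name the build mm10, and no probe set is named in what was used here. A second table the authors deposited holds a score per gene, Moran's I, whose UMI totals were equal to those of the matrices.

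Counts were summed per section, zone or spot kind, since spots are not replicates, and tested with edgeR 4.0.16 (R 4.3.3; TMM, filterByExpr, quasi-likelihood), with section as a block within sections. The threshold for a call was an adjusted p (Benjamini-Hochberg, over all genes tested) under 0.05. Residual degrees of freedom were 1 for whole sections, 3 for zones and 2 for the change of zones and for collagen. Levels, planned as raw CPM, are printed as normalised CPM so that they share a scale with the differences, each set of sums being scaled on its own, and the levels of different genes are not compared. The zone score of a spot is its average standardised log2(CPM + 1) over the pericentral landmarks less the same over the periportal ones. Intervals are exact Poisson at 95%.

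The members and lists were chosen with earlier results of these data known. Full statistics went to called members, up to the 10 largest in each direction, and to the most abundant member of a role group without a call. Related genes came from lists, at most 4 a list and comparison, beside Hk2, Eif2s3y and Ddx3y. The fits were tested on simulated data. The alternatives were other scalings, no filter, DESeq2 1.42.0, other zone and collagen definitions, and left-out sections. Shares of all genes are given for the main fits only, so counts under the alternatives describe how the members' calls held. Counts cover all members, but a few members are not reported here by name. Images were not analysed here.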

Additional observations from a re-analysis of the deposited data

Results flagged for a closer look

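For the members listed here the pericentral-to-periportal log2 difference in the 3 CCl4-treated sections differed from that in the healthy section, by the zone by treatment term in edgeR. The differences of that difference were -1.74 for Slc22a26, -0.95 for Slc22a28, -0.84 for Slc22a5, -0.83 for Abcg5, -0.69 for Slc47a1, -0.67 for Abcc3, -0.65 for Abcg8 and -0.64 for Slc22a18. They were -0.57 for Slco2b1, -0.57 for Abcb4, -0.49 for Abcb6, -0.49 for Slco1b2, -0.35 for Abcc2 and -0.35 for Abcc6. In the other direction they were 0.67 for Slco1a1, 0.86 for Abcc5, 1.04 for Abcg3, 1.46 for Slc22a17 and 1.69 for Abcb1b. The healthy side of each is 1 section.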

How the results depend on the processing

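RLE scaling changed 1 call of a named member, that of Slc22a26 with CCl4 (adjusted p = 0.0554). DESeq2 called 9 members with CCl4 and 9 for the change of the zone difference, where Abcb1b got no adjusted p. For Hk2 deletion 1 member was called without scaling factors and 1 without the filter. Without scaling factors 16 members were called between zones. Leaving out 1 section gave 4 to 27 members between zones, 20 to 23 for their change and 21 to 30 for collagen-high spots. Without scaling factors the collagen difference turned to 0.069 for Slco1b2 and 0.096 for Slc22a23, and the zone difference to 0.15 for Slc47a1 and 0.16 for Abcb6. Without collagen-high spots the latter were 0.0069 and 0.00051. Leaving out 1 section at a time, the zone difference ran from -0.25 to 0.0035 for Slc47a1 and from -0.19 to 0.018 for Abcb6. For Hk2 deletion the difference ran from -0.098 to 0.34 for Abcc2, -0.066 to 0.24 for Abcb6 and -0.21 to 0.089 for Abcg1. Depth-matched zones and collagen-high spots within the pericentral zone were chosen after seeing the data. Whole-section comparisons without 1 fibrotic section have no residual degree of freedom, so they gave differences but no counts, and the healthy or Hk2-deleted section could not be left out there. Sections of different groups came from different mice, so whole-section comparisons were not paired, while comparisons within sections took section as a block. The cause of these changes was not tested. Depth limits Slco4c1, Slco5a1, Abcg4, Slco4a1 and Slc47a2, which had few UMIs in every section.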
